A study of Mus musculus with 12 samples.

Results

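Sortilin, the mannose-6-phosphate receptors and the GGA and AP-1 adaptors were followed as RNA in mouse bone marrow-derived macrophages. Members were the rows of both count tables with the symbol Sort1, Sorl1, Igf2r, M6pr, Gga1, Gga2, Gga3, Ap1b1, Ap1g1 or Ap1s1, which gave 10 genes of the 24421 in the tables, and 10 of these passed the filter on low counts. The libraries formed 4 groups of 3: LPS-treated cells with an siRNA against Ehd1 (siEhd1), LPS-treated cells with a control siRNA (siControl), resting cells with siEhd1 and resting cells with siControl. Levels are in CPM, counts per library scaled to a common depth. Lipopolysaccharide (LPS) is a bacterial cell wall component that activates Toll-like receptors, and the labels call LPS-treated cells M1 and the untreated cells, named resting here, M0. All cells came from male C57BL/6J mice aged 8 weeks, and every group had received an siRNA, so the siEhd1 comparison has no untransfected cells beside it. The knockdown was partial: Ehd1 RNA stood at 48.7% of control with LPS and 59.2% at rest. LPS also raised Ehd1, by 3.26 on the log2 scale with siEhd1 and 3.54 with siControl, so its level was 302 ± 18.2 CPM in LPS-treated siEhd1 cells and 53.2 ± 1.18 CPM in resting siControl cells (SD, n = 3 each). The sources used here give neither the dose and duration of LPS nor the siRNA sequences. EHD1 is an ATPase of endocytic recycling, and the series' title places it beside sortilin, inflammation and atherosclerosis.

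These proteins form the route that carries newly made lysosomal enzymes out of the trans-Golgi network. Sortilin and SorLA (Sorl1) are receptors of the VPS10 family, and Igf2r and M6pr encode the cation-independent and the cation-dependent mannose-6-phosphate receptor, which bind the sugar tag on lysosomal hydrolases. GGA proteins are single-chain adaptors and AP-1 is an adaptor complex of several subunits; both read signals in the receptors' tails and recruit clathrin under the control of ARF GTPases. In macrophages the route feeds a large lysosomal system, and sortilin has also been tied to lipoprotein uptake and cytokine secretion.

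Depth was similar across libraries, with 18572725 to 22545272 counts and 14119 to 14753 detected genes each. All 8 macrophage markers were tested and reached from 58.4 CPM (lowest library of Mertk) to 21400 CPM (highest library of Lyz2), with TMM factors in the scaling. The summed level of 6 lymphocyte markers stayed at 0.44 CPM or less and that of 6 erythroid and mast cell markers at 0.264 CPM or less, with Cd3e, Ncr1, Hba-a1, Hbb-bs, Mcpt4 and Tpsb2 among those at 0 in all libraries. Neutrophil markers summed to at most 4.94 CPM, dendritic markers to at most 1.38 CPM and stromal markers to at most 18.0 CPM. The endothelial list summed to 14.2 to 33.8 CPM, of which Kdr alone made 13.6 to 26.4 CPM. Beside the siEhd1 effects given below, 10 cell cycle genes were higher at rest in all 10 cases and summed to 556.5 to 676 CPM with siEhd1, against 204 to 287 CPM with siControl. After LPS 8 of the 10 were higher, with sums of 278 to 288 CPM with siEhd1 and 185 to 204 CPM with siControl. The 6 osteoclast markers summed to 120 to 155 CPM with siEhd1 and 64.4 to 90.8 CPM with siControl at rest (3 of 4 tested higher), and to 91.0 to 97.2 CPM with siEhd1 and 61.9 to 78.1 CPM with siControl after LPS (2 of 4 higher). Of the 6, Dcstamp alone averaged 92.5 CPM with siEhd1 and 47.9 CPM with siControl at rest. Acp5 alone averaged 62.3 CPM with siEhd1 and 47.2 CPM with siControl after LPS. Over all tested genes, 14.0% were called higher and 14.2% lower with siEhd1 at rest, and 4.44% and 4.10% after LPS. Of the 8 macrophage markers 5 were lower with siEhd1 at rest and 0 after LPS, where none of the 8 was higher either. The part of these shifts in the results on sorting genes was not tested, and in bulk RNA fewer cells of a type and less RNA per cell cannot be told apart.

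A short sequence separated some of the members and is shown before their values. An earlier look at these same libraries had found the 7 bases GCCTTGT to be frequent in the 3 prime UTRs of genes that were lower with siEhd1, so its presence is a description and no independent evidence. In GENCODE M21 (build GRCm38), 3 of the 10 members carried it in their longest annotated 3 prime UTR: Gga2 with 2 matches, Sorl1 with 1 and M6pr with 1. Sort1, Igf2r, Gga1, Gga3, Ap1b1, Ap1g1 and Ap1s1 had 0 matches, as had Ehd1. Of 19510 genes with a searched 3 prime UTR, 2272 (11.6%) carried it. The sites are written as DNA of the transcript strand, 5′ to 3′, with 9 flanking bases on each side in lower case and the 7 bases in capitals.
Gga2, first site: ccactctgtGCCTTGTcagcctttg
Gga2, second site: ccaagaatgGCCTTGTcttcatttt
Sorl1: aattcaactGCCTTGTagcctggga
M6pr: ctgtgtgttGCCTTGTggtagttag
The Gga2 windows lie on the minus strand at chr7:121989312-121989336 and chr7:121989192-121989216, starting their match at bases 364 and 484 of a 3 prime UTR of 2969 bases. The Sorl1 window lies on the minus strand at chr9:41967929-41967953, with the match at base 659 of 3883. The M6pr window lies on the plus strand at chr6:122317074-122317098, with the match at base 633 of 1230.

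Sort1 (ENSMUSG00000068747.14, chromosome 3, 108284082 to 108361511, plus strand) fell with siEhd1 at rest and fell much further with LPS. Sortilin escorts cargo such as prosaposin and acid sphingomyelinase toward endosomes. At rest its level was 63.3, 75.0 and 74.2 CPM in the siEhd1 libraries, against 101, 102 and 104 CPM in the siControl libraries. Every siEhd1 library lay below every siControl library, with siEhd1 replicate 1 the lowest. The log2 fold change was -0.53 (SE 0.068, edgeR adjusted p = 8e-06), or 69.4% of control, and it stayed between -0.57 and -0.45 and was called under all 22 alternatives. After LPS the libraries held 12.5, 14.9 and 15.3 CPM with siEhd1 and 14.8, 16.7 and 14.7 CPM with siControl. These groups overlapped, and the log2 fold change of -0.12 (95% interval -0.31 to 0.07, edgeR adjusted p = 0.50) did not pass the test. From these levels the order of the groups was resting siControl, then resting siEhd1, then both LPS-treated groups, which did not differ beyond their spread.

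Sorl1 (ENSMUSG00000049313.8, chromosome 9, 41964720 to 42124297, minus strand) was lower with siEhd1 in both states. SorLA is best known for steering the amyloid precursor protein through the Golgi and endosomes of neurons. After LPS the siEhd1 libraries had 20.2, 20.5 and 20.1 CPM, against 31.7, 27.3 and 25.5 CPM in siControl libraries. At rest the levels were 37.2, 40.8 and 36.9 CPM with siEhd1 and 56.1, 56.3 and 59.3 CPM with siControl. Neither pair of groups overlapped. The log2 fold changes were -0.47 (SE 0.076, edgeR adjusted p = 0.00045) after LPS and -0.58 (SE 0.067, edgeR adjusted p = 2.1e-06) at rest. All 4 groups stood apart, from LPS-treated siEhd1 as the lowest to resting siControl as the highest.

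Of the mannose-6-phosphate receptors, M6pr was lower and Igf2r higher with siEhd1 after LPS, and neither was called at rest. M6pr (ENSMUSG00000007458.14, chromosome 6, 122308720 to 122317680, plus strand) held 566, 585 and 578 CPM in LPS-treated siEhd1 libraries, 671, 658 and 653 CPM in LPS-treated siControl libraries, 291.5, 298.7 and 294.2 CPM in resting siEhd1 libraries and 305.1, 299.2 and 309 CPM in resting siControl libraries. Every LPS-treated library was thus well above every resting one. With siEhd1 M6pr fell to 87.3% of control after LPS (log2 fold change -0.20, SE 0.046, edgeR adjusted p = 0.0097). At rest the libraries did not overlap but the log2 fold change of -0.05 was not called (95% interval -0.14 to 0.05, edgeR adjusted p = 0.50). The call after LPS was lost when M1_siEHD1 replicate 1 was left out or the fit held the LPS-treated libraries alone (adjusted p 3.2e-05 to 0.059 over the alternatives).

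Igf2r (ENSMUSG00000023830.14, chromosome 17, 12682406 to 12769664, minus strand), whose product also clears insulin-like growth factor II, ranged from 403 to 476 CPM over all 12 libraries. It averaged 468.5 ± 7.32 CPM with siEhd1 and 417 ± 20.1 CPM with siControl after LPS, and 427 ± 9.82 CPM with siEhd1 and 426 ± 13.3 CPM with siControl at rest (SD, n = 3 each). The LPS-treated siEhd1 libraries lay above the LPS-treated siControl libraries by 0.17 on the log2 scale (SE 0.051, edgeR adjusted p = 0.043). This call was kept under 7 of 22 alternatives and lost with 1 left out of most libraries (all but M0_siCON replicate 1 and M1_siCON replicate 2), with adjusted p from 0.0046 to 0.15. At rest the log2 fold change was 0.00 (95% interval -0.10 to 0.11, edgeR adjusted p = 0.97).

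**Figure D1:**
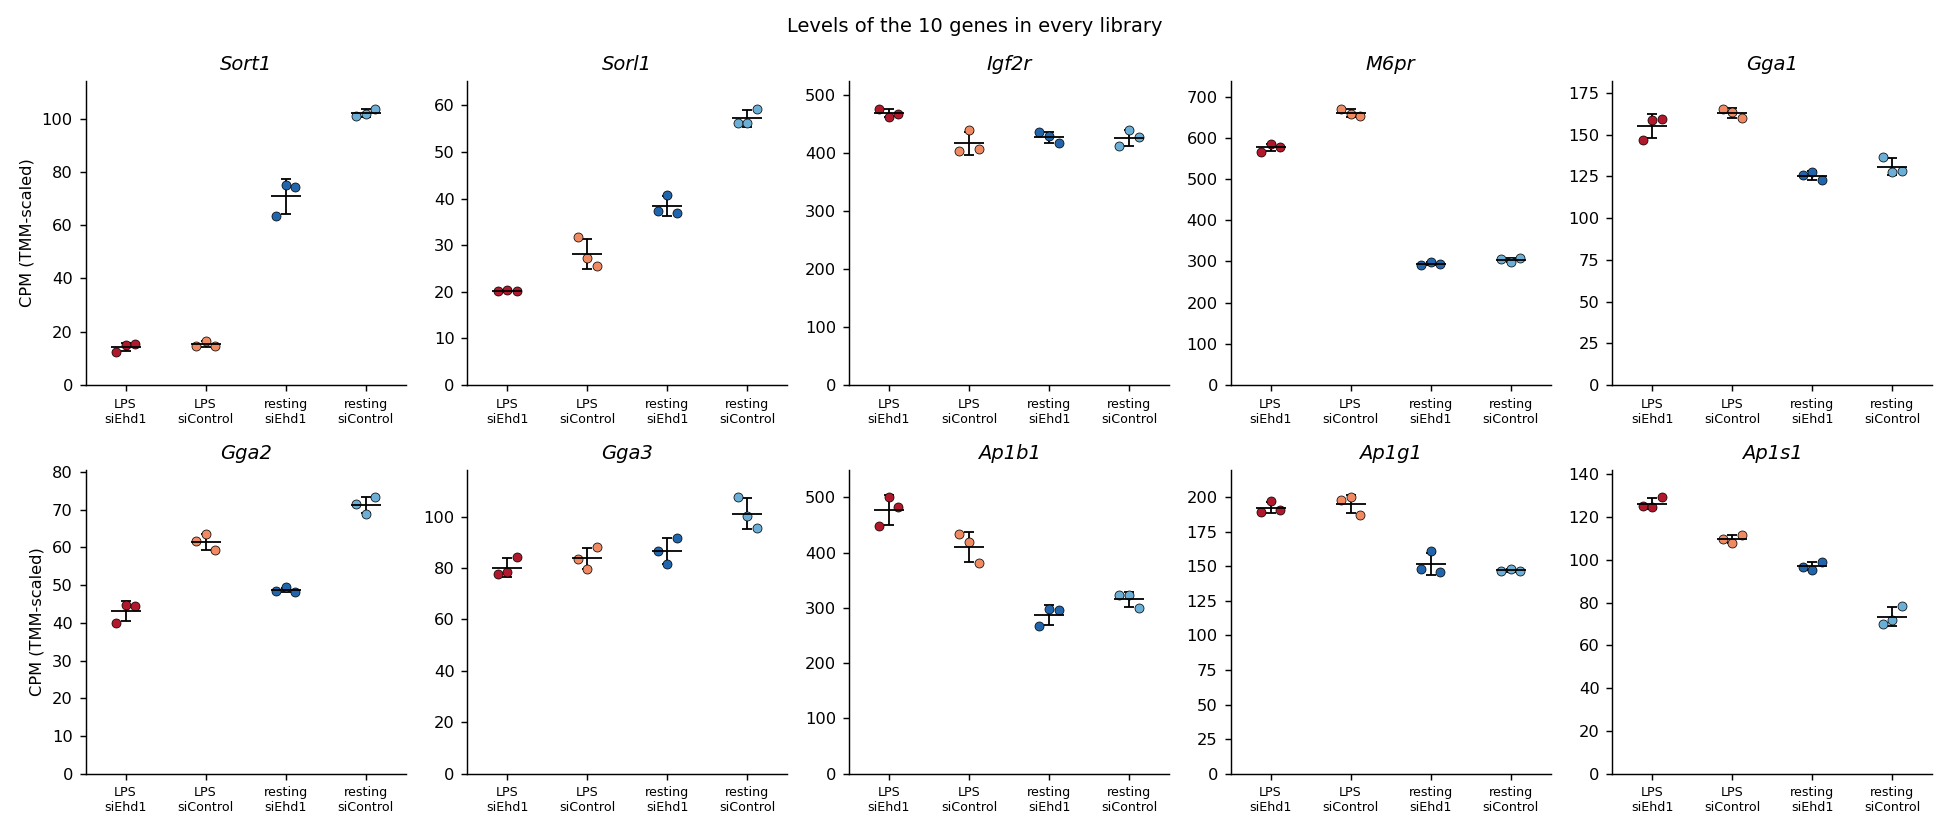
Level of each of the 10 genes in every library, in CPM after TMM scaling (linear axes from 0), for LPS-treated siEhd1, LPS-treated siControl, resting siEhd1 and resting siControl cells; points are libraries, and bars give the mean and SD of 3. Sort1 and Sorl1 are lowest after LPS, M6pr is highest there, and Gga2 is lower with siEhd1 in both states.

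Among the GGA genes Gga2 was lower with siEhd1 in both states and Gga3 at rest. Gga2 (ENSMUSG00000030872.14, chromosome 7, 121986722 to 122021222, minus strand) had 40.0, 44.8 and 44.6 CPM with siEhd1 and 61.9, 63.5 and 59.3 CPM with siControl after LPS. At rest it had 48.6, 49.4 and 48.3 CPM with siEhd1 and 71.5, 69.0 and 73.3 CPM with siControl. All siEhd1 libraries of either state lay below all siControl libraries of either state. The log2 fold changes were -0.51 (SE 0.057, edgeR adjusted p = 8.5e-06) after LPS and -0.55 (SE 0.055, edgeR adjusted p = 3.5e-07) at rest, and both calls were kept under all 21 alternatives that gave a value.

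Gga3 (ENSMUSG00000020740.13, chromosome 11, 115584255 to 115604051, minus strand) averaged 86.6 ± 5.10 CPM with siEhd1 and 101 ± 6.08 CPM with siControl at rest (SD, n = 3 each). It fell by 0.22 on the log2 scale (SE 0.059, edgeR adjusted p = 0.008), a call that did not hold when M0_siEHD1 replicate 2 or M0_siCON replicate 1 was left out (adjusted p 0.0043 to 0.059 over the alternatives). After LPS it averaged 80.1 ± 3.73 CPM with siEhd1 and 83.7 ± 4.22 CPM with siControl, and the log2 fold change of -0.07 was not called (edgeR adjusted p = 0.60). Gga1 (ENSMUSG00000033128.9, chromosome 15, 78877190 to 78894585, plus strand) ranged from 123 to 166 CPM and was called in neither state, with log2 fold changes of -0.07 after LPS and -0.06 at rest (edgeR adjusted p = 0.44 and 0.40). An opposite-strand gene, Mrps7, shares 127 exon bases with Gga3, and since the strand setting of the counting is not given, reads there cannot be assigned. Annotated antisense genes share 185 to 1435 exon bases with Sort1, Sorl1, Gga2 and Ap1g1. Unlike Mrps7, these antisense genes are not among the counted genes.

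The AP-1 subunit genes that were called, Ap1s1 and Ap1b1, were higher with siEhd1. Ap1s1 (ENSMUSG00000004849.14, chromosome 5, 137034993 to 137046135, minus strand), which encodes a small sigma subunit, held 125, 125 and 129 CPM with siEhd1 and 110, 108 and 112 CPM with siControl after LPS. At rest it held 96.5, 95.4 and 99 CPM with siEhd1 and 69.8, 71.9 and 78.5 CPM with siControl. The groups overlapped in neither state. It rose by 0.20 after LPS (log2, SE 0.050, edgeR adjusted p = 0.013) and by 0.40 at rest (SE 0.051, edgeR adjusted p = 7e-06). The call after LPS did not hold when M1_siEHD1 replicate 3 or M1_siCON replicate 2 was left out (adjusted p 0.002 to 0.064 over the alternatives).

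Ap1b1 (ENSMUSG00000009090.17, chromosome 11, 4986824 to 5042791, plus strand), the large beta subunit that binds clathrin, had 448, 500 and 482.5 CPM with siEhd1 and 433, 419 and 380.5 CPM with siControl after LPS. At rest it had 267, 298 and 296 CPM with siEhd1 and 323, 324 and 299.5 CPM with siControl. The siEhd1 libraries were the higher ones after LPS and the lower ones at rest, without overlap in either state. Only the difference after LPS passed the test (log2 fold change 0.21, SE 0.062, edgeR adjusted p = 0.035), and it was kept under 15 of 22 alternatives (adjusted p 0.014 to 0.14). Leaving out any of M1_siEHD1 replicates 2 and 3 and M1_siCON replicates 2 and 3 ended this call. At rest the value was -0.14 (95% interval -0.27 to -0.01, edgeR adjusted p = 0.11). Ap1g1 (ENSMUSG00000031731.16, chromosome 8, 109778554 to 109864204, plus strand), the gamma subunit, ranged from 146 to 200 CPM and was called in neither state (log2 fold changes -0.02 after LPS and 0.05 at rest, edgeR adjusted p = 0.88 and 0.54).

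Counted together, 3 of the 10 genes were higher and 3 lower with siEhd1 after LPS, against a background of 8.54% of all 12164 tested genes called (4.44% higher and 4.10% lower). At rest 1 was higher and 4 lower, against 28.2% of all genes called (14.0% higher and 14.2% lower). The median log2 fold change of the 10 was -0.07 after LPS and -0.10 at rest, beside -0.01 and -0.02 over all tested genes. The libraries of both siRNAs did not overlap for 7 of the 10 genes in either state, where 25.2% of all genes after LPS and 44.1% at rest did not overlap.

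**Figure D2:**
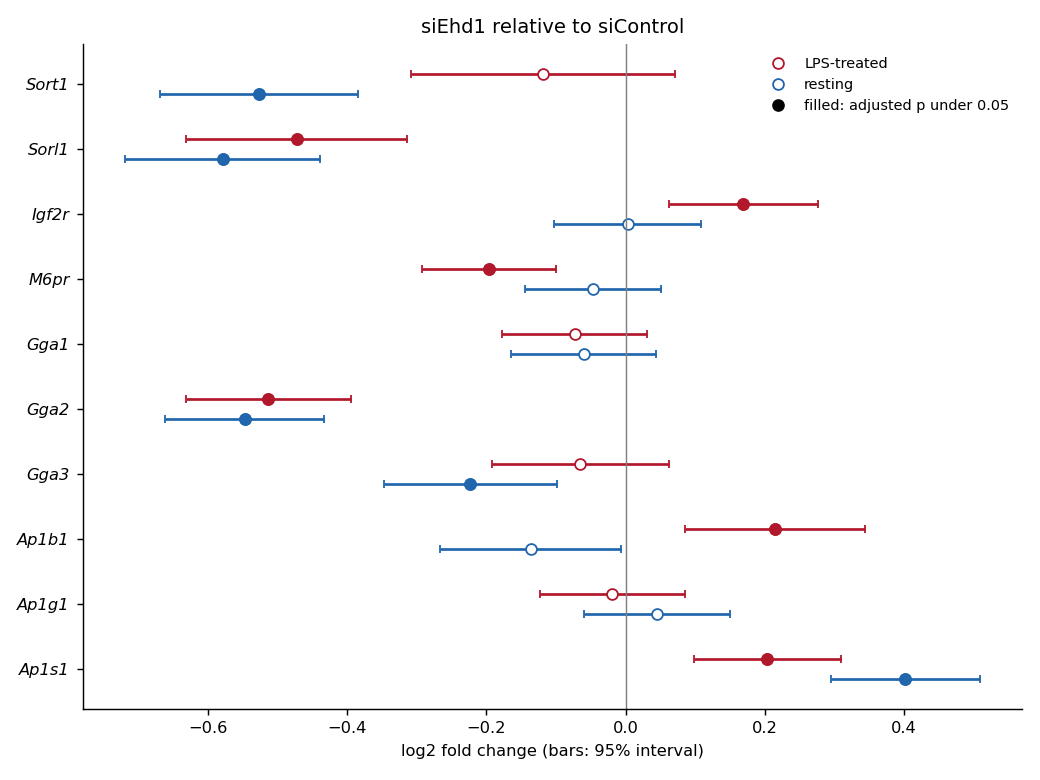
Log2 fold change of siEhd1 relative to siControl for each gene, after LPS (red, upper marker) and at rest (blue, lower marker); bars are 95% intervals and filled points have an adjusted p under 0.05. Sorl1 and Gga2 lie left of 0 in both states, Ap1s1 lies right of 0 in both, and Sort1 lies left of 0 with an interval clear of it at rest.

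The siEhd1 effects of the 2 states differed by the direct test for Sort1 and Ap1b1. For Sort1 the effect after LPS minus that at rest was 0.41 (log2, SE 0.114, edgeR adjusted p = 0.037), and for Ap1b1 it was 0.35 (SE 0.088, edgeR adjusted p = 0.020). These were 2 of 10 genes, both with a higher value after LPS, against 6.04% of all genes called (3.12% higher and 2.93% lower). For Sorl1 the difference was 0.11 (95% interval -0.11 to 0.32, edgeR adjusted p = 0.63) and for Gga2 it was 0.03 (95% interval -0.13 to 0.20, edgeR adjusted p = 0.88). The Sort1 call was kept under 12 of 21 alternatives (adjusted p 0.017 to 0.12) and lost with limma-voom and when any 1 of these libraries was left out: M1_siEHD1 replicates 2 and 3, M1_siCON replicates 1 and 3, M0_siEHD1 replicate 1 and M0_siCON replicates 1, 2 and 3. The Ap1b1 call was kept under 16 of 21 (adjusted p 0.0053 to 0.075) and lost when M1_siEHD1 replicate 2 or 3, M0_siEHD1 replicate 1, or M0_siCON replicate 1 or 2 was left out. In the same comparison 4 of 8 macrophage markers were higher and 6 of 10 cell cycle genes lower, and their part was not tested.

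With LPS both VPS10 receptor genes fell, M6pr rose, the 3 AP-1 members rose, and among the GGA genes Gga1 rose while Gga2 fell. Sort1 stood at 14.2 ± 1.51 CPM in LPS-treated cells and 70.8 ± 6.50 CPM in resting cells with siEhd1 (20%, log2 fold change -2.32, SE 0.081), and at 15.4 ± 1.12 CPM and 102 ± 1.45 CPM with siControl (15.1%, -2.73, SE 0.079; SD, n = 3 each). The edgeR adjusted p was 6e-16 with siEhd1 and 2.8e-17 with siControl. Sorl1 fell by 0.92 with siEhd1 and by 1.02 with siControl on the log2 scale (edgeR adjusted p = 6.1e-10 and 3.9e-11). M6pr rose by 0.97 with siEhd1 and by 1.12 with siControl (edgeR adjusted p = 1.6e-13 and 1.4e-14).

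Of the adaptors, Ap1b1 rose by 0.73 on the log2 scale with siEhd1 and by 0.38 with siControl (edgeR adjusted p = 1.6e-09 and 1.7e-05). Ap1s1 rose by 0.38 with siEhd1 and 0.58 with siControl, and Ap1g1 by 0.34 and 0.41 (largest edgeR adjusted p of the 4 values 4.4e-06). Without scaling factors the rises were smaller, at 0.51 with siEhd1 and 0.18 with siControl for Ap1b1, 0.16 and 0.38 for Ap1s1, and 0.12 and 0.21 for Ap1g1, all still called. Gga1 rose by 0.31 with siEhd1 and 0.32 with siControl (edgeR adjusted p = 1.8e-05 and 1e-05), but without scaling factors the siEhd1 value was 0.08 and not called (adjusted p = 0.13, and 2e-08 to 0.13 over the alternatives) and the siControl value was 0.12. Gga2 fell by 0.18 with siEhd1 and by 0.21 with siControl (edgeR adjusted p = 0.0098 and 0.0019), and the siEhd1 call was lost without M1_siEHD1 replicate 1 (adjusted p = 0.084, and 1.8e-06 to 0.084 over the alternatives). Gga3 was -0.11 with siEhd1 (edgeR adjusted p = 0.11) and fell by 0.27 with siControl (edgeR adjusted p = 0.00046). Without scaling factors the falls were larger, at -0.40 with siEhd1 and -0.41 with siControl for Gga2 and -0.34 and -0.47 for Gga3, which was then called with siEhd1 too (adjusted p = 0.00021, and 0.00021 to 0.38 over the alternatives); Gga3 was also called there with upper quartile factors and without M0_siEHD1 replicate 2. Igf2r rose by 0.13 with siEhd1 (edgeR adjusted p = 0.025) and was -0.03 with siControl (edgeR adjusted p = 0.59). The rise with siEhd1 was lost with upper quartile factors and when M1_siEHD1 replicate 1 or 3 or M0_siEHD1 replicate 3 was left out, and without scaling factors the values were -0.09 with siEhd1 and -0.23 with siControl (adjusted p 0.0085 to 0.65 with siEhd1 and 3e-04 to 0.93 with siControl over the alternatives).

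In all, 6 of the 10 genes were higher and 3 lower after LPS with siEhd1, against 67.0% of all genes called (32.9% higher and 34.0% lower). With siControl 5 were higher and 4 lower, against 68.8% called (34.8% higher and 34.0% lower), so a call as such was common in these comparisons. Sort1 had the largest change of the 10 with either siRNA. The 2 states came as separate tables, so a difference in handling between them and the LPS effect cannot be told apart. Without scaling factors the median of all genes moved to -0.24 with siEhd1 and -0.21 with siControl, and the directions of the called members held there except for Igf2r with siEhd1.

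**Figure D3:**
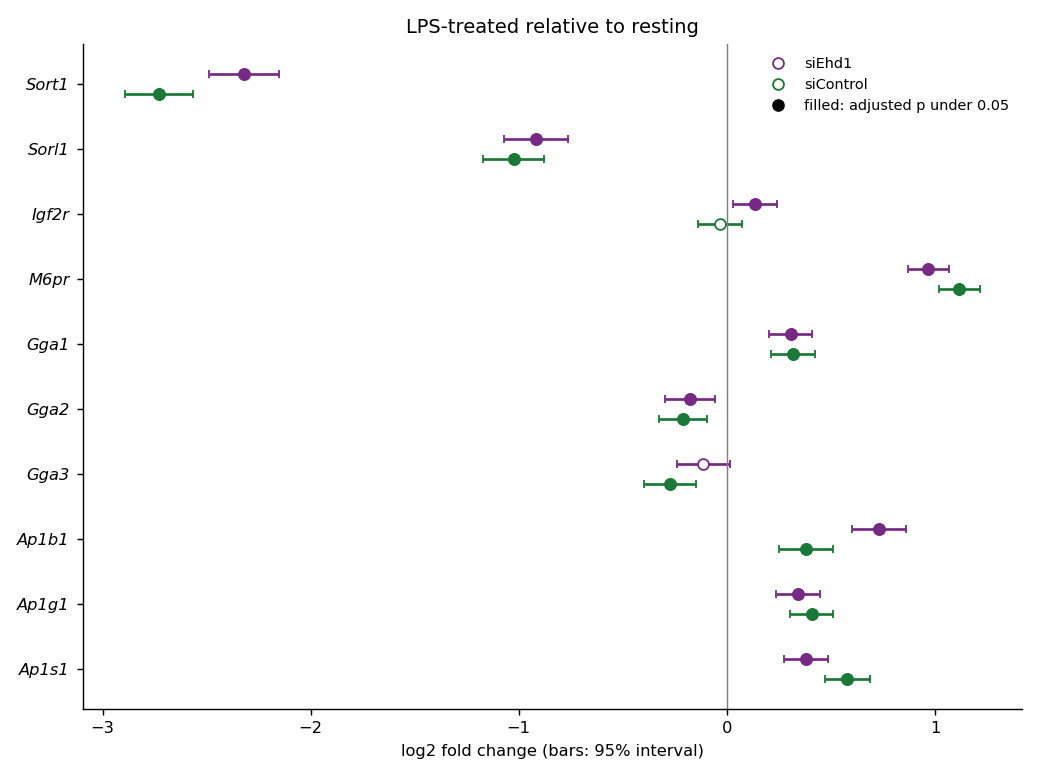
Log2 fold change of LPS-treated relative to resting cells for each gene, with siEhd1 (purple, upper marker) and with siControl (green, lower marker); bars are 95% intervals and filled points have an adjusted p under 0.05. Sort1 lies near -2.3 with siEhd1 and -2.7 with siControl, M6pr near 1, and the 3 AP-1 subunits between 0.34 and 0.73.

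To compare levels between genes, CPM was divided by the length of all annotated exons in kilobases. On that scale M6pr was the most abundant of the 10 in each group, at 138 with siEhd1 and 158 with siControl after LPS and at 70.7 with siEhd1 and 73.0 with siControl at rest, in CPM per kilobase. Ap1b1 came second in each group, at 96.2 with siEhd1 and 82.9 with siControl after LPS and at 57.9 with siEhd1 and 63.7 with siControl at rest. This rank depended on the length used. Per kilobase of the longest coding transcript, Ap1s1 stood above Ap1b1 in resting siEhd1 cells (43.7% ± 1.43 and 42.8% ± 1.34 of the sum of the 3 AP-1 members). Per kilobase of all exons, Sort1 was 8th of 10 at rest, with 9.36 CPM per kilobase with siEhd1 and 13.5 with siControl, and after LPS it was 9th with siEhd1 (1.88) and 10th with siControl (2.04). After LPS Sorl1 took the other place at the bottom, with 1.79 with siEhd1 and 2.49 with siControl. At rest Sorl1 was 10th, with 3.38 with siEhd1 and 5.06 with siControl, and Gga2 was 9th (4.99 and 7.29).

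The make-up of the receptor pool changed with it. Sort1 made 0.977% ± 0.097 of the summed per-kilobase level of the 4 receptor genes in LPS-treated siEhd1 cells and 0.98% ± 0.063 in LPS-treated siControl cells, 7.24% ± 0.623 in resting siEhd1 cells and 9.82% ± 0.039 in resting siControl cells (SD, n = 3 each). M6pr made 71.9% ± 0.558 with siEhd1 and 76.3% ± 0.898 with siControl after LPS, and 54.7% ± 0.265 with siEhd1 and 53.2% ± 0.835 with siControl at rest. Igf2r made 26.2% ± 0.637 with siEhd1 and 21.5% ± 0.909 with siControl after LPS. Gga2 made 7.55% ± 0.184 of the GGA sum with siEhd1 and 9.99% ± 0.340 with siControl after LPS, and 9.56% ± 0.131 with siEhd1 and 12.5% ± 0.607 with siControl at rest. In each state the 3 siEhd1 shares of Gga2 lay below the 3 siControl shares. Shares depend on the length used: per kilobase of the longest coding transcript, Gga2 made 10.8% with siEhd1 and 14.2% with siControl after LPS, and 13.4% with siEhd1 and 17.3% with siControl at rest.

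**Figure D4:**
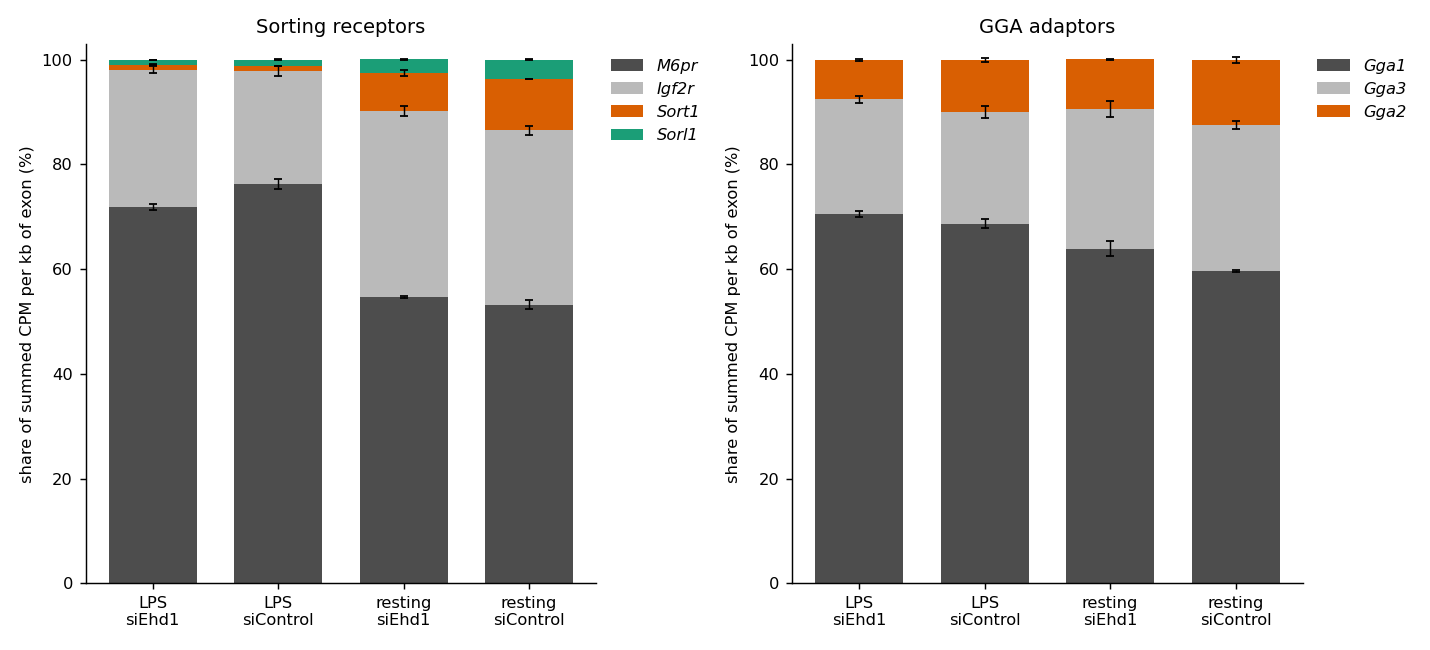
Share of each gene in the summed CPM per kilobase of exon of the 4 receptor genes (left) and the 3 GGA genes (right), in percent, for the 4 groups; segments are means of 3 libraries and error bars are SD. The Sort1 segment is 0.98% or less in both LPS-treated groups and 7.24% to 9.82% at rest, and the Gga2 segment is smaller with siEhd1 in both states.

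The share of genes carrying GCCTTGT differed with the direction of the siEhd1 effect. The sequence had been picked from genes lower with siEhd1 in these same libraries. The shares, their rise with the number of matches and the members' calls are therefore no independent evidence. After LPS 48.7% of 474 searched lower genes carried it, against 9.96% of 522 higher genes and 12.2% of 10246 genes not called. At rest 27.4% of 1627 lower genes carried it, against 8.34% of 1642 higher and 12% of 7973 not called. Genes with 2 or more matches were lower in 21.5% of 205 cases after LPS and 45.4% at rest; with 1 match these shares were 14.0% and 26.4% of 1333, and with 0 matches 2.50% and 12.2% of 9704. Gga2, with 2 matches, had the smallest p of the members in both states. The members called lower after LPS were the 3 carriers Gga2, Sorl1 and M6pr, whereas at rest Sort1 and Gga3 were lower with 0 matches. In a fit without the carriers Sort1 was -0.54 at rest (edgeR adjusted p = 7.7e-06). The same fit ended the calls after LPS of Igf2r (0.16, edgeR adjusted p = 0.07, and 0.0046 to 0.15 over the alternatives) and Ap1b1 (0.21, edgeR adjusted p = 0.055, and 0.014 to 0.14). A smaller tilt was seen between LPS-treated and resting cells with siControl. There 16.6% of 3803 lower genes carried the sequence, against 11.4% of 4033 higher and 13% of 3406 not called. Longer 3 prime UTRs have more room for a match, and their length was not taken into account in any of these shares. The part of the sequence in any of these changes was not tested.

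**Figure D5:**
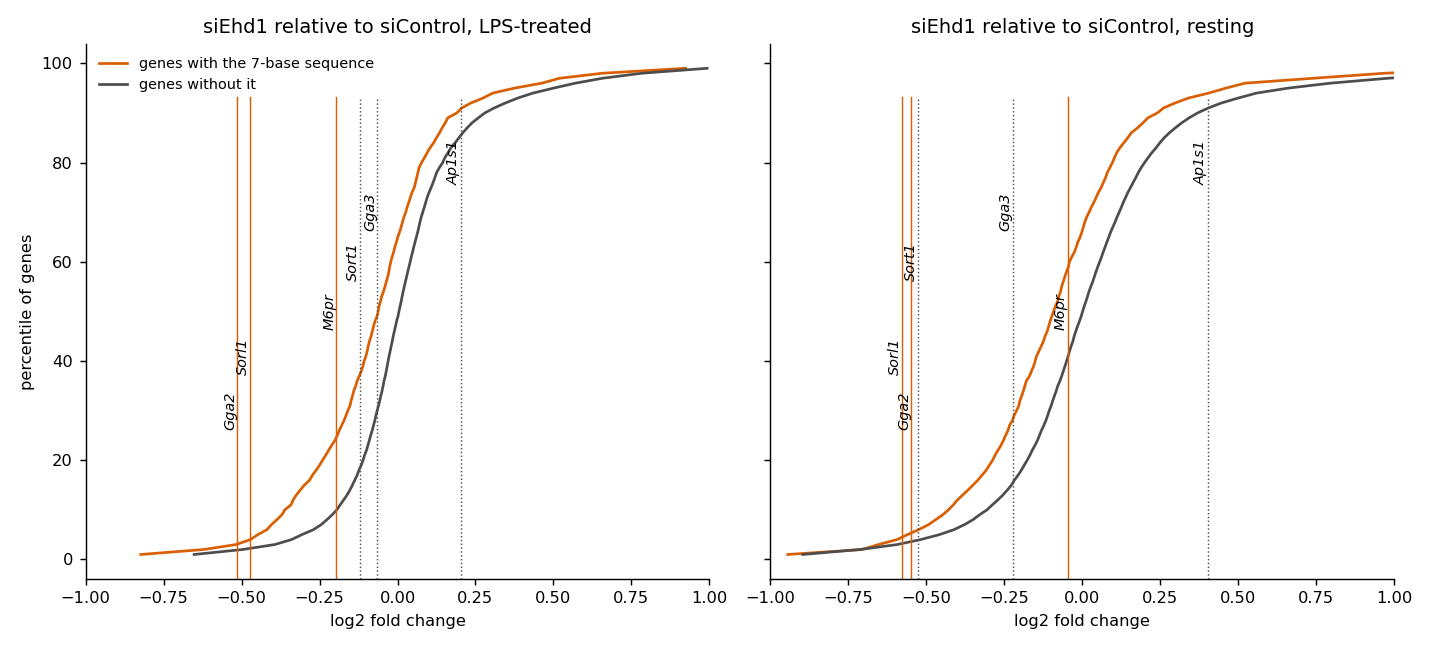
Percentiles of the log2 fold change of siEhd1 relative to siControl over genes with (orange) and without (grey) the 7-base sequence in the 3 prime UTR, after LPS (left) and at rest (right); vertical lines mark 6 members, solid orange for carriers and dotted grey for others. The carriers' median is -0.06 after LPS and -0.09 at rest, against 0.005 and 0.001 for other genes.

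Other genes of the route were described from 9 lists with 91 entries, of which 83 were tested. After LPS siEhd1 lowered 1 of 14 accessory genes, the epsin-related clathrin adaptor gene Clint1 (106 ± 0.866 CPM with siEhd1, 136 ± 10.3 CPM with siControl, log2 fold change -0.36, edgeR adjusted p = 0.00039). At rest 3 of these 14 fell and 1 rose, with Clint1 first (94.8 ± 2.60 CPM with siEhd1, 131 ± 7.08 CPM with siControl, -0.47, edgeR adjusted p = 3.8e-06), followed by the sorting connector gene Pacs1 (-0.27, edgeR adjusted p = 0.003) and the kinesin gene Kif13a (0.18, edgeR adjusted p = 0.027). Of the 3 genes that make the mannose-6-phosphate tag, Nagpa, whose enzyme uncovers the tag, fell in both states (-0.37 after LPS and -0.42 at rest, edgeR adjusted p = 0.00092 and 6.4e-05). The phosphotransferase genes Gnptg after LPS (0.21, edgeR adjusted p = 0.049) and Gnptab at rest (0.21, edgeR adjusted p = 0.0057) rose.

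Among 8 tested genes of sortilin ligands, 1 was called higher and 1 lower with siEhd1 after LPS, and 4 lower and 0 higher at rest. Lpl was called in neither state, though its siEhd1 libraries lay above its siControl libraries in both. It averaged 1282 ± 95.5 CPM with siEhd1 and 757 ± 262 CPM with siControl after LPS. At rest it averaged 4497 ± 131 CPM with siEhd1 and 3005 ± 386 CPM with siControl. For this list and the others, the background share of calls was 4.44% (higher) and 4.10% (lower) after LPS, and 14.0% (higher) and 14.2% (lower) at rest. Psap, which encodes prosaposin, fell in both states (-0.34 after LPS and -0.56 at rest, edgeR adjusted p = 0.0067 and 1.4e-05). Its level was 9979 ± 328 CPM with siEhd1 and 12630 ± 1510 CPM with siControl after LPS. Apoe (-0.78) and the protease gene Ctsh (-0.33) fell at rest (edgeR adjusted p = 1.5e-05 and 5.9e-05), and the receptor chaperone gene Lrpap1 rose after LPS (0.23, edgeR adjusted p = 0.0046). Of 32 hydrolase genes that serve as cargo of the mannose-6-phosphate receptors, 7 rose and 0 fell after LPS (median 0.09), with Ctsl (0.53), Manba (0.22) and Galns (0.23) having the smallest p (edgeR adjusted p = 0.0048, 0.020 and 0.027). At rest 4 rose and 8 fell (median -0.06), with Galns (0.37) and Aga (0.34) first (edgeR adjusted p = 0.00016 and 0.00062).

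Of the 4 other tested AP-1 subunit genes 2 rose with siEhd1 at rest, Ap1s3 (17.9 ± 2.52 CPM with siEhd1, 10.3 ± 2.24 CPM with siControl, 0.80, edgeR adjusted p = 0.00098) and Ap1s2 (0.19, edgeR adjusted p = 0.023), and 0 of 4 were called after LPS. Of 3 clathrin genes 1, Cltb, rose at rest (0.41, edgeR adjusted p = 0.00098) and 0 were called after LPS. Among 7 ARF and exchange factor genes Arf1 rose (0.19, edgeR adjusted p = 0.0079) and Arfgef2 fell (-0.20, edgeR adjusted p = 0.011) at rest, with 0 called after LPS. Of 12 retrieval genes 1 rose after LPS and 2 rose and 1 fell at rest; the sorting nexin gene Snx2 rose in both states (0.23 and 0.28, edgeR adjusted p = 0.0078 and 0.00054), and at rest the retromer gene Vps35 rose (0.29, edgeR adjusted p = 8.4e-05) and Plin3 fell (-0.14, edgeR adjusted p = 0.036). Sorcs1, Sorcs2 and Sorcs3, the other VPS10 receptor genes, did not pass the filter on low counts.

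Members and these lists together held 12 tested genes with GCCTTGT and 81 without it. Of the 12, 6 were lower after LPS, 6 were lower at rest and 5 were lower in both states, namely Gga2, Sorl1, Clint1, Nagpa and Psap. None of the 12 was higher in either state. Of the 81 others 0 were lower and 13 higher after LPS, and 16 were lower and 13 higher at rest. Over all tested genes with a searched 3 prime UTR, 14% with 1 match and 21.5% with 2 or more were lower after LPS. At rest these shares were 26.4% and 45.4%. With 0 matches, 2.5% were lower after LPS and 12.2% at rest. Over all tested genes 4.44% were higher after LPS and 14.0% at rest. Of all 1538 tested genes with the sequence, 52 were higher after LPS and 137 at rest. Finding none higher among the 12 therefore does not set them apart from other genes with it. The share lower in both states was not counted over all genes. As the sequence came from genes lower in these same libraries, the counts are no independent evidence.

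Of 32 hydrolase genes 11 rose and 14 fell after LPS with siEhd1, and 11 rose and 21 fell with siControl, in comparisons where 67.0% and 68.8% of all genes were called. The acid lipase gene Lipa fell to 366 ± 18.9 CPM in LPS-treated cells, against 1834 ± 83.9 CPM in resting cells with siEhd1 (log2 fold change -2.32, edgeR adjusted p = 3.2e-16). With siControl it stood at 368 ± 44.4 CPM in LPS-treated and 1720 ± 79.1 CPM in resting cells (-2.22, edgeR adjusted p = 6.3e-16). With siEhd1 Ctsz (1.38) and Npc2 (1.01) rose, and with siControl Man2b1 (-1.10) and Sgsh (-1.81) fell (largest edgeR adjusted p of the 4 values 9.4e-12). Each of these 4 genes was also called with the other siRNA, in the same direction. With siControl Ctsz averaged 2610 CPM with LPS and 1182 CPM at rest, and Npc2 2039 and 1201 CPM. With siEhd1 Man2b1 averaged 635 CPM with LPS and 1198 CPM at rest, and Sgsh 37.2 and 90.8 CPM. Small AP-1 subunit genes divided: Ap1s1 rose as given above, whereas Ap1s2 fell to 33.3 ± 0.443 CPM with LPS, against 90.9 ± 4.80 CPM at rest, with siEhd1, and to 33.7 ± 3.30 CPM with LPS, against 79.6 ± 2.44 CPM at rest, with siControl (log2 fold changes -1.45 and -1.24, edgeR adjusted p = 4.1e-14 and 4.8e-13). Ap1s3 fell too (-2.79 with siEhd1 and -2.18 with siControl, edgeR adjusted p = 1.9e-09 and 9.8e-08).

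Sort1's pattern over the 4 groups was most closely matched by Zfp704, Dio2, Frat2, Bmf and Tmem154 among 9431 other genes (mean level 5 CPM or more). Likeness was the root mean square difference between centred group means of log2 CPM over the 4 groups, and it ran from 0.054 for Zfp704 to 0.10 for Tmem154. Zfp704, a zinc finger gene, averaged 16.1 CPM with siEhd1 and 16.7 CPM with siControl after LPS, and 79.0 CPM with siEhd1 and 105 CPM with siControl at rest. Of the other members Sorl1 was nearest, at 0.78 and rank 598, and M6pr farthest, at 1.79. With a minimum of 1 CPM, Zfp704 and Dio2 stayed among the 5 nearest.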

How the data were processed

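The authors deposited raw gene counts, in 1 table per state (resting, LPS-treated). The submitters' processing notes name mm10 as the build and Trim Galore 0.6.3, STAR 2.7.6a and featureCounts 2.20.0 among the tools; the sources used here give no annotation or strand setting. Library names in the labels matched columns to samples, and 0 columns were unused.

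Counts entered 1 edgeR 4.0.16 fit (R 4.3.3, limma 3.58.1) over all 12 libraries with 1 mean per group: filterByExpr by group (minimum count 10, minimum total 15; 12164 genes tested), TMM factors, and a quasi-likelihood F test at a threshold of 0.05 after Benjamini-Hochberg adjustment over all tested genes. Each SE was derived from the log2 fold change and its F statistic, and 95% intervals from that SE and a t quantile. Adjusted p-values come from this fit unless another tool is named. Alternatives were RLE, upper quartile or no factors, no filter, DESeq2 1.42.0, limma-voom, only the groups compared, a replicate block over all libraries or within each table, each library left out and, chosen after seeing the data, genes with the 7-base sequence left out and another gene length. The edgeR steps were tested on counts simulated with the same spread for all genes and with changes in the resting siEhd1 group alone. That setting is simpler than these data and does not check the calls or the scaling between states.

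Named genes were the 10 members, Ehd1, up to 3 called genes with the smallest p per list in the comparisons described, and the 5 genes most like Sort1. Lpl was named in addition, for its levels. Some genes under this rule are not reported here. Members, lists and tests were chosen with earlier results of these data known. The labels do not say whether replicates are separate animals or cultures, so p-values measure only a spread between libraries that could be technical. No pair of libraries within a group was identical, and each pair differed beyond sampling noise (chi-square over its degrees of freedom 3.0 to 23.6). Each member had 254 or more counts in each library.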

Additional observations from a re-analysis of the deposited data

Results flagged for a closer look

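The siEhd1 effect on Sort1 differed between states by the direct test: the effect after LPS minus that at rest was 0.41 on the log2 scale. The same test gave 0.35 for Ap1b1, whose siEhd1 libraries were all higher than siControl after LPS and all lower at rest. Each call was lost when some single libraries were left out, as named with the values above. Groups of 3 libraries were too small to be screened for single outlying libraries.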

How the results depend on the processing

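Every called siEhd1 effect on a member kept its direction under all alternatives run. After LPS 3 members were called higher, but 1 with only the LPS-treated groups in the fit, 1 with the replicate block within each table, and 0 to 3 with 1 library left out (3 only without M0_siCON replicate 1, and 0 or 1 without M1_siEHD1 replicate 2 or 3 or M1_siCON replicate 2 or 3). In the difference of effects the 2 members called became 1 with limma-voom and 0 to 2 with 1 library left out; 0 were lower, and 0 to 1 with 1 left out (1 without M0_siCON replicate 3). Over all genes, leaving out 1 library gave 1148 to 1857 lower at rest (lowest without M0_siCON replicate 1), 304 to 594 higher and 303 to 506 lower after LPS (lowest without M1_siEHD1 replicate 1), and 243 to 429 higher and 209 to 418 lower in the difference. The replicate block within each table gave 232 lower in the difference, and leaving out carriers of the 7-base sequence gave 258 lower after LPS. Without scaling factors LPS with siEhd1 gave 2499 genes higher and 6244 lower (4005 and 4139 with TMM), and LPS with siControl 2826 and 5860 (4237 and 4132); upper quartile factors gave 3187 and 5107 with siEhd1. Sign changes were these: Igf2r at rest was -0.02 to 0.025 with 1 library left out and -0.008 without carriers, Igf2r for LPS with siEhd1 was -0.089 without scaling factors, and the Gga1 difference was -0.044 to 0.025 with 1 library left out. The cause was not tested. The labels do not say that replicate numbers pair the samples, and correlations between libraries did not settle it. Same-numbered libraries within a table correlated at -0.369 to 0.177. Of these 6 pairs, 1 was over 0.1 and 1 correlated best with its own number. Between tables same-numbered libraries correlated at -0.292 to 0.398, with 0.169, 0.398 and 0.194 for siEhd1 replicates 1, 2 and 3. Differently numbered libraries within a table reached 0.402 (M0_siCON replicate 1 and M0_siEHD1 replicate 3). M0_siCON replicate 2 with M0_siEHD1 replicate 1 gave 0.298, and M0_siCON replicate 3 with M0_siEHD1 replicate 2 gave 0.364. The replicate blocks used the replicate numbers, so they would miss a pairing in another order. The replicate block over all libraries ended among the members the Igf2r call after LPS (adjusted p = 0.07), and the block within each table ended the Igf2r, M6pr and Ap1b1 calls there (adjusted p = 0.12, 0.058 and 0.076; 3.2e-05 to 0.15 over these genes' alternatives). With 3 libraries a group, the SE of the members' siEhd1 effects was 0.046 to 0.091 on the log2 scale.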
